A study of Rattus norvegicus with 43 samples.

Results

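The ribosomal protein genes measured here are those whose probe sets carry a single platform symbol beginning with Rpl or Rps followed by a digit or p, with the Rps6k kinases left out. This rule, which used no measured value, found 43 genes of the 4736 named on the arrays, through 62 of the 8740 probe sets. There were 30 genes of the large (60S) subunit and 13 of the small (40S) subunit. Each gene is represented by its probe set of highest mean signal, and 16 genes had more than 1 probe set. The low-signal filter passed 41 genes in every organ. The other 2 were not tested: Rplp1l3, a copy of the stalk gene Rplp1, had group means of 12.9 to 137, and the pseudogene Rps2-ps1 had 68.9 to 237. A second listed pseudogene, Rps4x-ps9, was tested. Ribosomal protein transcripts have many near-identical copies, so the copy that a probe set reads is uncertain for these and for Rpl19l4 and Rpl36al1.

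The samples were liver, lung and normal mammary gland of female Sprague-Dawley rats, 100 days old when a treatment of 7 days began. Controls received diet only. Targretin, also called bexarotene, activates retinoid X receptors and was given by gavage at 60 mg/kg body weight. The feed of other rats held 9-cis retinoic acid (9cRA, a ligand of retinoic acid and retinoid X receptors) at 100 mg/kg diet, or 4-hydroxyphenylretinamide (4HPR, a synthetic retinamide) at 782 mg/kg diet. The labels name no gavage control, and because doses and routes differed, the agents are set side by side and were not tested against each other. There were 43 arrays in 12 groups, each of 4 arrays except diet lung, Targretin in all 3 organs and 4HPR mammary gland, which had 3. Whether the replicates were separate animals is not given in the labels, so p-values measure the spread between these arrays, which may be technical. In bulk tissue, fewer cells of a type and less RNA per cell cannot be told apart.

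Ribosomal proteins fold and stabilise ribosomal RNA, line the peptide exit tunnel and form the landing sites for translation factors. They are needed in equal numbers, and cells make them together. Their messenger RNAs are known as TOP mRNAs, because they start with a C followed by an unbroken stretch of C and T (U in the RNA), the terminal oligopyrimidine tract. Through this tract the kinase mTOR and the protein LARP1 control their translation according to growth signals and nutrients, largely without a change in transcript level. Arrays measure transcript levels only.

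RefSeq start sequences (assembly GRCr8) matched 36 of the 43 genes. The 11 below are shown because the results turn on these genes: Rpl21, Rpl3, Rpl22, Rpl23 and Rpl35 had among the largest organ differences, Rplp0, Rpl6, Rpl18 and Rps10 rose with Targretin in mammary gland, and Rps24 and Rpl26 changed with Targretin in liver. Each line holds 30 bases before and 20 bases from the annotated start, with capitals for the longest run of C and T that reaches to within 20 bases of it.
Rpl21, chr12:13386134-13386183, minus strand: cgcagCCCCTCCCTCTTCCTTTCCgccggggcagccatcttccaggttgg
Rpl22, chr5:168117931-168117980, plus strand: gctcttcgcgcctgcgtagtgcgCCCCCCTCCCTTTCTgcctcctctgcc
Rpl23, chr10:83272165-83272214, minus strand: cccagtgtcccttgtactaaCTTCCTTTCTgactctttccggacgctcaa
Rpl35, chr3:43165902-43165951, minus strand: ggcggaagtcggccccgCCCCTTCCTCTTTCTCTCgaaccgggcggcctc
Rpl3, chr7:113507971-113508020, minus strand: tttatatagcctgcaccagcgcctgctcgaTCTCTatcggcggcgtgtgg
Rps10, chr20:5700725-5700774, minus strand: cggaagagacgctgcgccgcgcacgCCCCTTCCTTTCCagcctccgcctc
Rps24, chr16:96487-96536, plus strand: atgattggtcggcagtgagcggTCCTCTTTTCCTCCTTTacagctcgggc
Rplp0, chr12:46718371-46718420, minus strand: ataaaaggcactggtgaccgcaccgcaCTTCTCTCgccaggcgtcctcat
Rpl18, chr1:105325240-105325289, plus strand: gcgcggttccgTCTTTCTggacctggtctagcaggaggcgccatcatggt
Rpl6, chr12:41011671-41011720, minus strand: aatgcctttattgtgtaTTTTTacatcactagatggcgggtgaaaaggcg
Rpl26, chr10:54109662-54109711, plus strand: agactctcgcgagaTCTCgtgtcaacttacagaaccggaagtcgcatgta
A run of at least 6 bases was found in 29 of the 36 genes (80.6%), against 43.6% of all 33469 promoters in the same table. A run of at least 8 was found in 26 (72.2%), against 21% of all promoters. The letters CTTCC or CTTTCC can lie inside such a run and were searched only on the strand that reads as the messenger RNA does. They stood within 20 bases of the start in 20 of 36 (55.6%), against 9.78%. The annotated start base itself was C in 14 of 36 (38.9%), against 24.1%. Within that reach of the annotated start Rpl3, Rpl6 and Rpl26 had a longest run of 4 or 5 bases, and Rpl21 one of 19. The Rpl3 run began at the annotated start base, and those of Rpl6, Rpl26 and Rpl21 ended before it.

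The 43 genes took a small share of the liver signal, a larger one in lung and the largest in mammary gland, with no overlap between organs among the diet arrays. Their share of the summed signal was 2.56% to 2.93% in the 4 diet livers, 5.35% to 6.09% in the 3 diet lungs and 7.64% to 8.5% in the 4 diet mammary glands. In the Targretin livers it was 2.26% to 2.54%, below every diet liver. The 9cRA livers had 2.28% to 2.73%, which overlapped diet. Of the 4HPR livers 3 had 2.40% to 2.52%, also below every diet liver, and the fourth had 3.24%, above every diet liver. In lung and mammary gland each treated group overlapped its diet group.

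**Figure D1:**
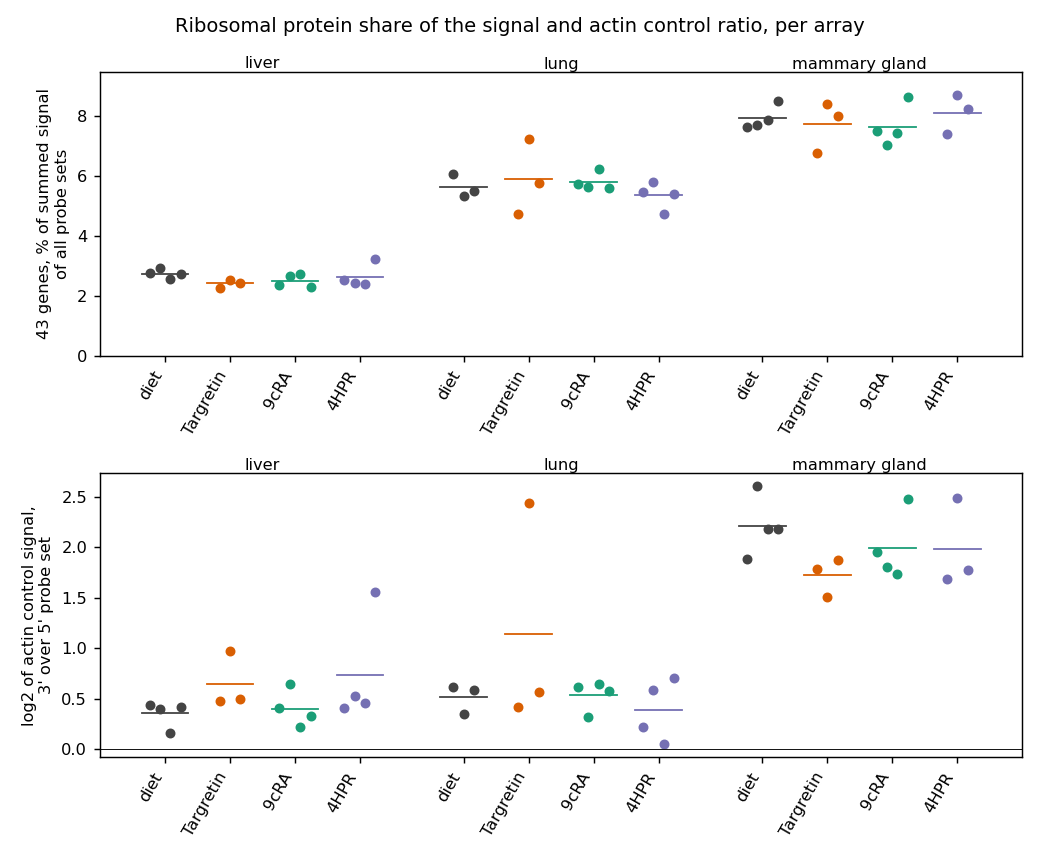
Share of the summed array signal taken by the 43 ribosomal protein genes, in percent, for each of the 43 arrays by organ and agent. Each point is 1 array; the diet arrays lie between 2.56% and 2.93% in liver, 5.35% and 6.09% in lung, and 7.64% and 8.5% in mammary gland.

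Some arrays and tissues stood apart in ways that touch these values. The log2 ratio of the 3′ to the 5′ beta-actin control, which rises as RNA is degraded, was 0.16 to 0.44 in diet liver, 0.35 to 0.62 in diet lung and 1.88 to 2.61 in diet mammary gland, so it moved with the organ. The GAPDH ratio was also highest in mammary gland, at -0.054 to 0.26, 0.163 to 0.265 and 1.28 to 1.64 in the same order. The hexokinase ratio was lowest in mammary gland, at 1.12 to 1.88, 1.53 to 2.39 and -0.097 to 0.80. The highest actin ratios in liver and lung were those of 4HPR liver replicate 4 (1.55) and Targretin lung replicate 2 (2.44). These arrays also had the highest GAPDH ratios of their organs, 1.18 and 1.34. Their ribosomal protein shares, 3.24% and 7.25%, were the highest of their groups, and their hexokinase ratios, 1.22 and -0.25, the lowest. Against their labels, 4HPR liver 4 and 4HPR lung 4 lay with the diet arrays, and diet lung 2 with the treated arrays, in 3 probe sets given with the treatments. The second probe set of Rpl27, also given there, leaned the same way. In 4HPR liver 4 the 100 brightest probe sets took 27.7% of the summed signal, against 32.8% to 35.1% in its group and 25.7% to 29.3% on diet. Whether samples were exchanged was not tested, so values that rest on these 3 arrays are open to it. The labelled organs matched their markers: the summed signal of 8 adipocyte markers was 191534 to 272952 in diet mammary gland against 6672 to 7583 in diet liver, and that of alveolar and airway epithelium markers was 287796 to 313759 in diet lung against 1610 to 3241 in diet liver. Hepatocyte markers, 14 of them measured and none at 0 on all arrays, summed to 655478 to 790961 in diet liver, 12431 to 55567 in diet lung and 90757 to 141578 in diet mammary gland. The part of these differences in the results was not tested.

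Between untreated mammary gland and liver, ribosomal protein transcripts differed in 1 direction. Of 41 tested, 35 were higher in mammary gland, 0 were lower and 6 did not pass (limma, adjusted p under 0.05), in a comparison where 57.8% of all probe sets passed and 33.1% were higher. The median difference was 1.55 on the log2 scale, or 2.93-fold, against 0.058 over all 6913 probe sets. Probe sets with a mean signal at or above the lower quartile of the members had a median of 0.69, with 185 of 334 higher and 98 lower. This bright set had no upper limit of signal and contained members as well, so it is not a separate background. All differences are on the scale of log2(signal + 38.1), which understates those of dim genes.

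Rpl3, at the heart of the large subunit beside the peptidyl transferase centre, showed the pattern with little scatter. Its signal was 17209.7, 17447, 14378 and 20575 in the diet livers, 44933, 40246 and 37493 in the diet lungs and 93273, 110955, 104853 and 110478 in the diet mammary glands. The organs did not overlap, and mammary gland exceeded liver by 2.60 ± 0.21, adjusted p = 1.3e-13 (log2 ± SE), a 6.05-fold difference. Rpl23, a protein of the face toward the small subunit, read 20254, 22832, 17512 and 20290.1 in liver, 53848, 42318 and 44308 in lung and 104428, 100619.7, 97397 and 106157 in mammary gland. The order of the organs was the same, and mammary gland exceeded liver by 2.34 ± 0.20, adjusted p = 7.8e-13.

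Rpl22, which is not essential for translation and is known for a role in lymphocyte development, was 15515, 15460.3, 15151 and 15531 in liver, 44478, 30969 and 37479 in lung and 81074, 62064, 90803 and 79809 in mammary gland. The 4 livers were close together and the difference of mammary gland from liver was 2.33 ± 0.21, adjusted p = 1.65e-12. Rpl35 sits at the mouth of the exit tunnel. It had 17904, 13909.7, 15982 and 17411 in liver, 37838, 39504 and 35019 in lung and 73572, 84447, 80176 and 88519 in mammary gland, and the difference of mammary gland from liver was 2.33 ± 0.18, adjusted p = 9.05e-14. The pseudogene Rps4x-ps9 followed with 2.80 ± 0.25, adjusted p = 2.74e-12, from liver signals of 7354, 5941, 5541 and 5782 and mammary gland signals of 31826, 45327, 50535 and 46166. The largest difference, 3.77 ± 0.39, adjusted p = 1.07e-10, belonged to Rpl21, whose probe sets did not behave alike and which is described further on.

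**Figure D2:**
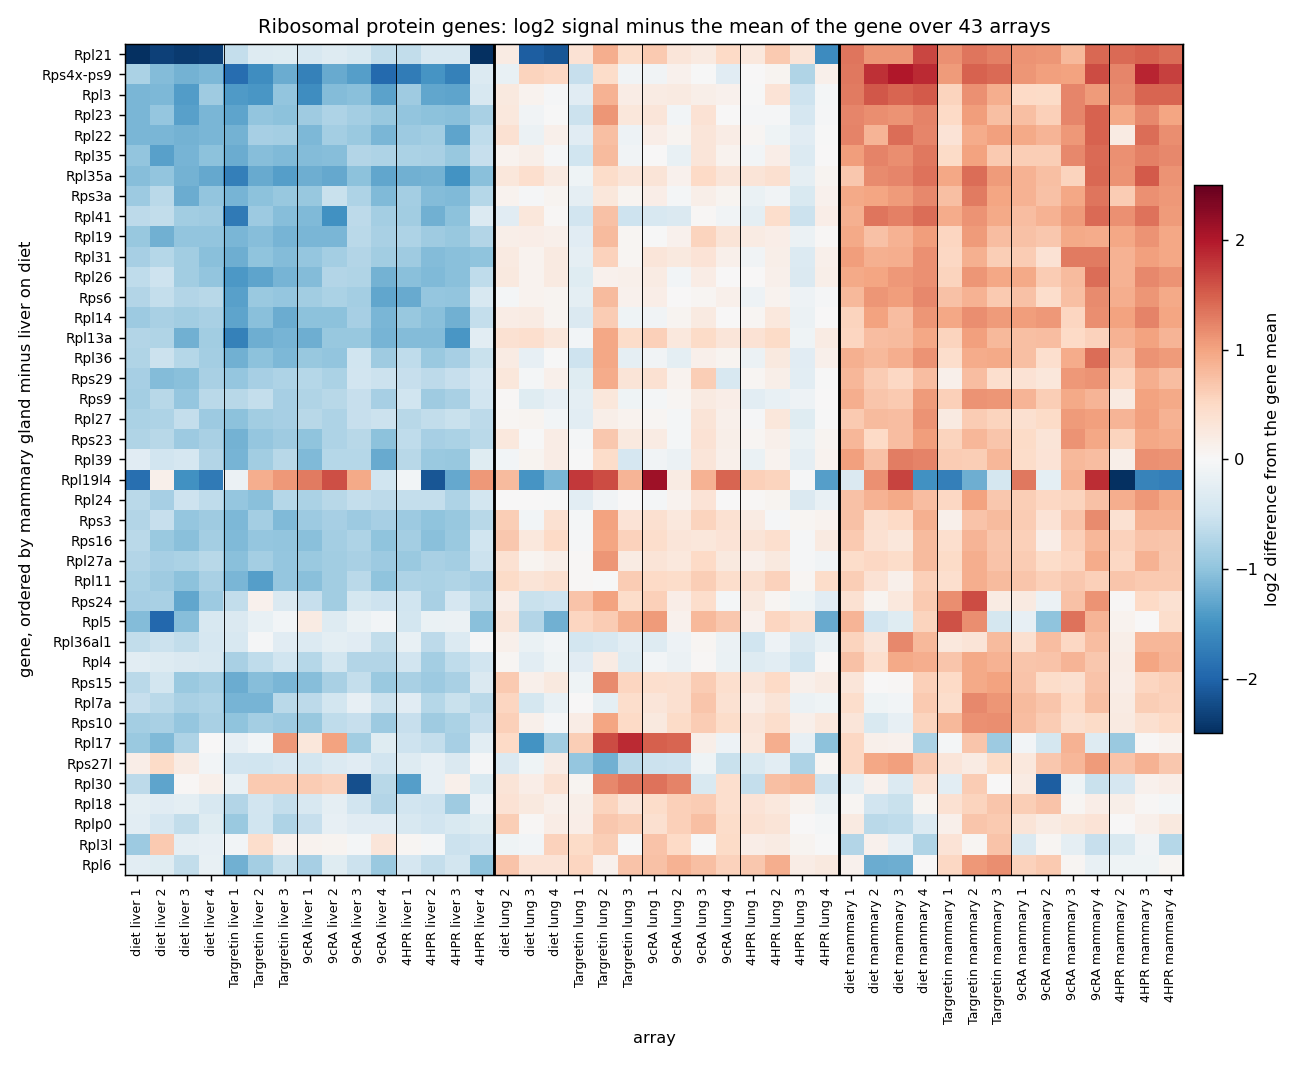
Colour map of the log2 signal of each of the 41 tested genes minus the mean of that gene over the 43 arrays. Columns are arrays by organ and agent, and genes are ordered by the difference of mammary gland from liver on diet. The signals behind the Rpl3 row were 14378 to 20575 in diet liver, 37493 to 44933 in diet lung and 93273 to 110955 in diet mammary gland.

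Every structural group contained genes that were higher in mammary gland than in liver, except the stalk, where Rplp0 was the only gene measured. At the exit tunnel and exit site 6 of 7 passed, with a median difference of 1.80, and in the body and platform of the small subunit 5 of 5 passed, with a median of 1.62. The head of the small subunit had 5 of 5 at a median of 1.40, and the remaining large subunit genes 15 of 19 at 1.61. Both proteins that dock the 5S RNA, Rpl5 and Rpl11, passed, at 1.29 ± 0.43 (adjusted p = 0.0103, groups overlapping) and 1.30 ± 0.14 (adjusted p = 1.44e-10). Rps6, the small subunit protein phosphorylated downstream of mTOR, differed by 1.72 ± 0.17, adjusted p = 2.77e-11, from 19602 ± 884 (SD, n = 4) in liver to 65014 ± 7358 (SD, n = 4) in mammary gland.

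The 6 genes that did not pass were of 2 kinds. Rpl3l, a muscle form of Rpl3, and Rpl30 and Rpl17 had low signals with wide scatter, and their differences were -0.22, 0.43 and 0.70. Rpl6, Rplp0 and Rpl18 were bright. Rplp0 is the base of the stalk that recruits elongation factors, and its signal was 30793, 27613, 23997 and 29975 in liver and 42898, 23016, 23859.6 and 29098 in mammary gland, a difference of 0.041 ± 0.16, adjusted p = 0.852. For Rpl18 the liver arrays read 10989, 10678, 11033 and 9804 and the mammary gland arrays 13407, 9358, 8874 and 13727. Rpl6 had 12924, 12475, 10118 and 13671 in liver and 16672, 6511, 6608 and 15656 in mammary gland. For all 3 genes, and for Rps10, mammary gland arrays 1 and 4 read higher than arrays 2 and 3, a pattern noticed after their values were seen. Other members such as Rpl7a, Rps15, Rps16 and Rps3 showed it too, and others such as Rpl3 and Rpl13a did not.

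Liver was also below lung. Of the 41 genes, 34 were lower in liver, 0 were higher and 7 did not pass, where 53.8% of all probe sets passed and 37.9% were lower. The median difference was -0.93, or 1.91-fold, against -0.37 over all probe sets and -0.40 over the bright set, which contains members. This contrast depended on how arrays were scaled. The median signal per array was 339.2 to 390.6 in diet liver and 470.5 to 514.2 in diet lung. When every array was divided by its own median, the median over all probe sets moved to 0.027, the median of the genes to -0.50, and 19 were lower and 1 higher. Under quantile normalization 33 were lower and 0 higher, with a median of -1.18. Without diet lung replicate 2, 29 were lower.

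The largest differences of liver from lung were those of Rpl35a, -1.43 ± 0.18, adjusted p = 1.75e-08, and Rps16, -1.35 ± 0.18, adjusted p = 2.53e-08. Rpl35a, a gene mutated in some families with Diamond-Blackfan anaemia, read 7242, 7673, 6685 and 6217 in liver and 18440.5, 20255 and 17781 in lung. Rps16, whose protein tail reaches the transfer RNA from the head of the small subunit, read 22015, 18531, 17049 and 19569.8 in liver and 56241, 42099.7 and 49478 in lung. Neither gene overlapped between the organs. The others among the 6 largest were Rps4x-ps9, Rpl11, Rpl22 and Rpl13a, at -1.34, -1.28, -1.27 and -1.25, all with adjusted p-values of at most 5.68e-05. By role, 5 of 5 head genes and 5 of 5 body and platform genes were lower in liver, with medians of -1.09 and -0.72. The stalk gene Rplp0 also passed, at -0.68 ± 0.18, with an adjusted p of 0.00129. Rps27l, a paralog of Rps27 that p53 is known to induce, was the gene with a difference above 0, 0.29, adjusted p = 0.184, and did not pass.

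Mammary gland against lung split the genes. Here 25 were higher in mammary gland, 3 were lower and 13 did not pass, where 41.9% of all probe sets passed, 15.8% higher and 26.1% lower. The median was 0.76 against -0.18 over all probe sets, but that of the bright set, which contains members, was 0.81. There 198 of 334 were higher and 46 lower. The split moved with the scaling: quantile normalization gave 20 higher and 7 lower with a median of 0.46, and division by the array median gave 29 higher and 1 lower with a median of 1.13, where the median of all probe sets was 0.15.

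Within this comparison the body and platform of the small subunit were higher in mammary gland for 5 of 5 genes, with a median of 0.99, and the exit tunnel and exit site for 6 of 7, with a median of 0.86. Of the 5 head genes, Rps29 alone passed (0.57 ± 0.22, adjusted p = 0.033), and their median was 0.051. Neither 5S RNA partner passed: Rpl11 differed by 0.025 ± 0.15 and Rpl5 by 0.70 ± 0.46. After Rpl21 (2.64), the genes with the largest differences were Rps4x-ps9, Rpl3, Rpl41, Rpl23 and Rpl35, at 1.46, 1.36, 1.20, 1.13 and 1.12. Rps27l, which did not pass between liver and lung, was higher in mammary gland than in lung by 0.89 ± 0.18, adjusted p = 0.000121.

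The 3 genes lower in mammary gland than in lung were Rpl6, Rplp0 and Rpl18, the bright genes that had not passed against liver. Rpl6 read 25349, 19651 and 19631 in the diet lungs, above every diet mammary gland, and differed by -1.05 ± 0.26, adjusted p = 0.00122. Rplp0 read 56889.9, 37803 and 41968 in lung, which overlapped mammary gland, and differed by -0.64 ± 0.18, adjusted p = 0.00351. Rpl18 read 16811, 15514 and 14221 in lung and differed by -0.48 ± 0.17, adjusted p = 0.0263. Without diet lung replicate 2 the adjusted p was 0.0585 for Rplp0 and 0.103 for Rpl18, and for Rpl18 leaving out diet lung replicate 3 or diet mammary gland replicate 2 or 3 gave 0.0619, 0.0921 and 0.113. Under division by the array median neither passed, with differences of -0.27 and -0.11.

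**Figure D3:**
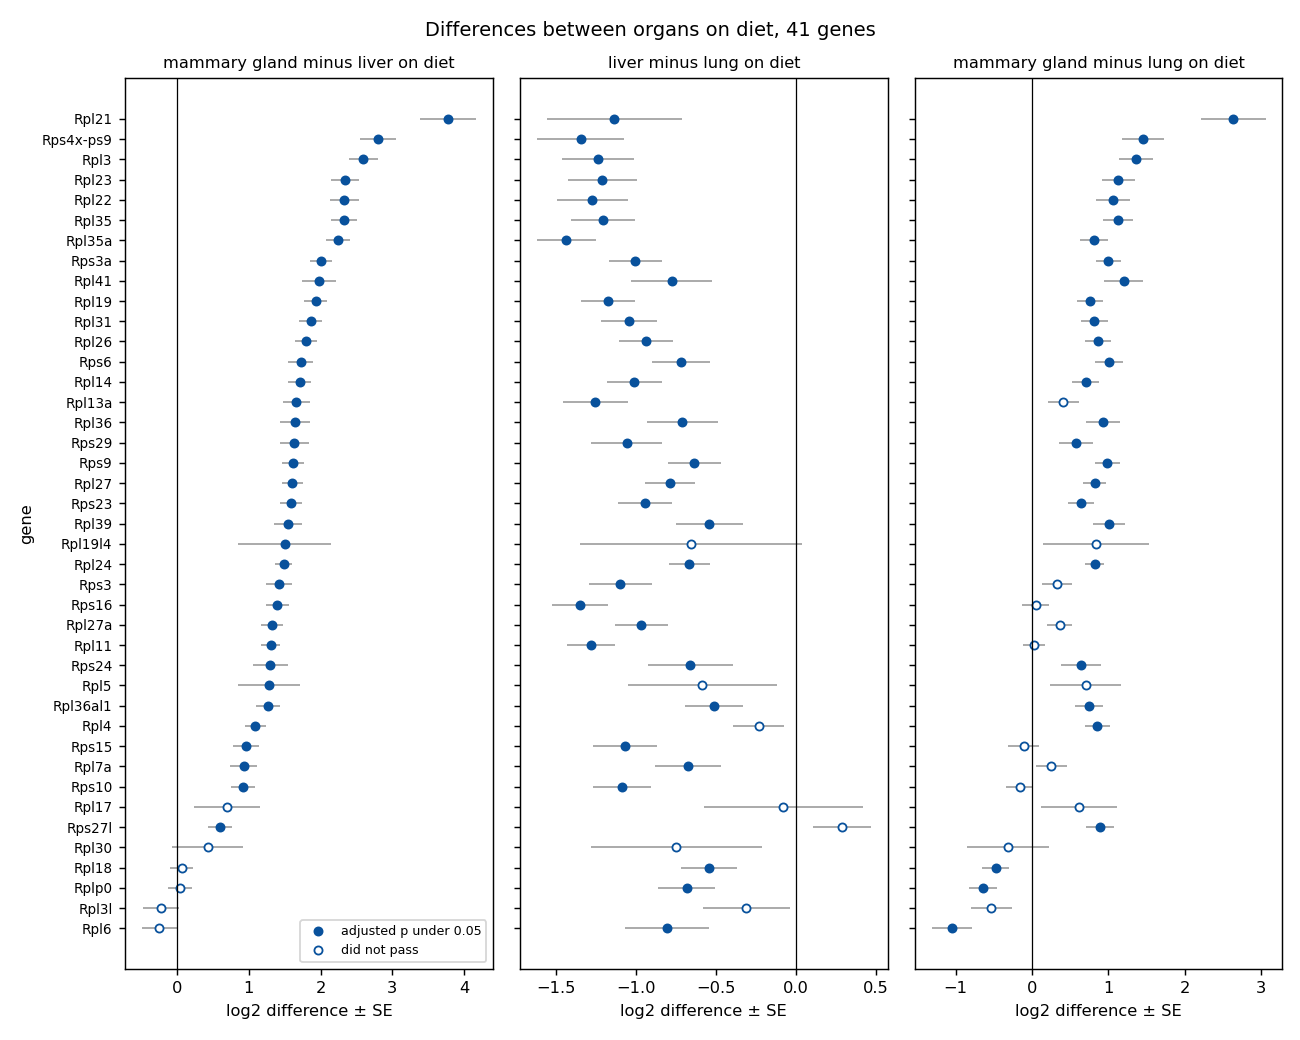
Fitted log2 difference of each of the 41 tested genes between organs on diet, ordered by the difference of mammary gland from liver. Error bars are standard errors and filled points passed at an adjusted p under 0.05. Mammary gland against liver has 35 filled points, all above 0, and liver against lung has 34, all below 0.

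Other probe sets of the same genes were read as well. Of 15 genes with several tested probe sets, all probe sets passed in 1 direction for 11 in mammary gland against liver, 12 in liver against lung and 9 in mammary gland against lung, and no gene had opposite calls. The rule leaves out 40 probe sets that list several genes, at least 1 with a symbol beginning with Rpl or Rps followed by a digit or p. Symbols of Rps6k kinases were not excluded from this set. Of the 39 tested, 35 were higher and 1 lower in mammary gland than in liver, with a median of 1.80, against 33.1% and 24.7% of all probe sets.

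Partners of the ribosome outside the rule were read from 6 gene lists. Of all probe sets 33.1% were higher and 24.7% lower in mammary gland than in liver. Rack1, a scaffold on the head of the small subunit, was higher in mammary gland than in liver by 2.56 ± 0.20, adjusted p = 3.55e-14, and Rpsa by 0.31, which did not pass. Of 4 elongation factor genes 3 were higher in mammary gland, among them Eef1g (1.46) and Eef1a1 (1.01). Of 19 initiation factor genes 13 were higher and 0 lower, led by Eif3m (2.41). Among 11 nucleolar and assembly genes 8 were higher and 1 lower: Polr1d, a subunit of RNA polymerase I and III, differed by 2.07, and Ubtf, the activator of ribosomal RNA genes, by -1.05. Of 8 regulators of ribosome synthesis 4 were higher and 1 lower, with Myc at 2.49 ± 0.28, adjusted p = 6.13e-10. Mitochondrial ribosomal proteins, part of a separate ribosome, had 5 of 8 higher and 1 lower, with Mrpl13 at 1.82. In liver against lung the counts lower in liver were 2 of 4, 9 of 19, 10 of 11, 6 of 8 and 4 of 8 in the same order, with 1 mitochondrial gene higher. There 37.9% of all probe sets were lower and 15.9% higher.

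Few ribosomal protein genes passed under the 7-day treatments. Of 41 genes the number that passed against diet in liver was 4 with Targretin, 3 with 9cRA and 1 with 4HPR, where 11.2%, 5.16% and 2.78% of all probe sets passed. In lung it was 1, 0 and 0, where 2.39%, 0.0% and 0.0% passed, and in mammary gland 4, 0 and 0, where 13.2%, 0.0% and 0.0% passed. At an unadjusted p under 0.05 limma counted 5 genes (12.2%) with 9cRA and 1 (2.44%) with 4HPR in lung, against 11.1% and 4.6% of all probe sets. In mammary gland it was 8 (19.5%) and 2 (4.88%), against 18.7% and 2.99%. All comparisons within an organ share the same diet arrays. The within-group scatter of these genes was a median SD of 0.186 (liver), 0.283 (lung) and 0.271 (mammary gland) on the log2 scale, against 0.339, 0.355 and 0.405 over all tested probe sets. Rpl19l4 scattered most, with an SD of 0.90 in lung and 1.05 in liver, and none of its differences from diet passed. It stood at 1.88, 2.10 and 0.67 in liver with Targretin, 9cRA and 4HPR.

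**Figure D4:**
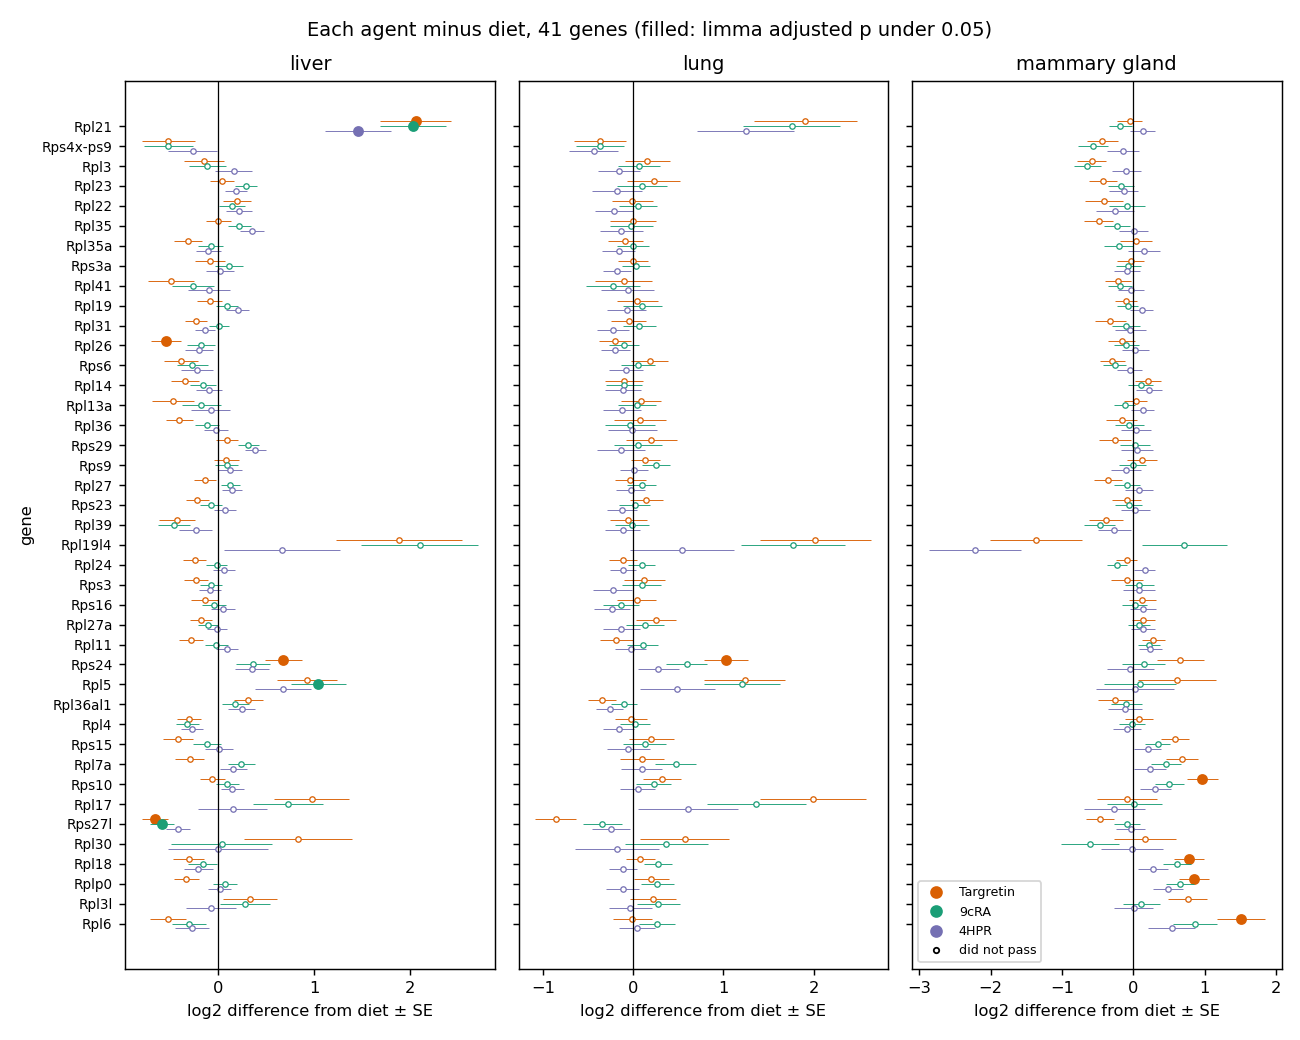
Fitted log2 difference from diet of each of the 41 tested genes for the 3 agents in the 3 organs, with filled points for those at an adjusted p under 0.05. Most points lie near 0; Rpl21 stands at 2.06 with Targretin and 2.03 with 9cRA in liver, and Rpl6 at 1.51 with Targretin in mammary gland.

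In Targretin-treated liver 29 of the 41 genes lay below 0 and 12 above, with a median of -0.22 against -0.015 over all probe sets, yet most single differences did not pass. Of all probe sets 4.89% were higher and 6.28% lower. At an unadjusted p under 0.05 there were 18 genes (43.9%), against 23.8% of all probe sets. Rpl21 and Rps24 rose, and Rpl26 and Rps27l fell. Other measures also separated the Targretin livers from the diet livers. The actin ratio was higher, at 0.47 to 0.97, while the GAPDH ratio overlapped diet. Summed signals were lower for macrophage markers (10852 to 14432 against 19886 to 22482 on diet) and erythroid markers (27675 to 54875 against 55242 to 100502). They were higher for proliferation markers (8881 to 9648 against 3511 to 5062), fibroblast and matrix markers (43052 to 47503 against 37661 to 42128) and adipocyte markers (8420 to 9386 against 6672 to 7583). The part of these in the result was not tested.

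Rps27l fell with Targretin and with 9cRA. The diet livers read 10741, 13305, 10892 and 9058, the Targretin livers 6768, 6741 and 7102 and the 9cRA livers 6898, 7543, 7813 and 6804. Among all probe sets 2.55% were higher and 2.6% lower with 9cRA. Every treated array of these groups was below every diet array, and the differences were -0.66 ± 0.13, adjusted p = 0.00341, and -0.58 ± 0.12, adjusted p = 0.0113. The 4HPR livers read 7604, 8234, 7439.5 and 9359.8, which overlapped diet, and the difference was -0.42, adjusted p = 0.0796. In lung, Targretin arrays read 4826, 4106 and 5954 against 7437, 8768 and 10871 on diet, with no overlap, a difference of -0.86, adjusted p = 0.0536 that did not pass. The Targretin call in liver passed in all 17 alternative fits. The 9cRA call was lost under division by the array median, at an adjusted p of 0.056.

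Rps24, a protein of the small subunit body and another gene of Diamond-Blackfan anaemia, rose with Targretin in liver and lung. The liver signals were 1091, 1098, 769 and 1028 on diet and 1266, 2118 and 1522 with Targretin, a difference of 0.68 ± 0.19, adjusted p = 0.0311. The lung signals were 2210.5, 1322 and 1346 on diet and 3213, 3975 and 2703 with Targretin, and the difference of 1.03 ± 0.24, adjusted p = 0.0452 was the only one among the 41 genes to pass in lung, where 1.38% of all probe sets were higher and 1.01% lower. The groups did not overlap in either organ. In liver the adjusted p was 0.188 without Targretin replicate 2, 0.0595 without Targretin replicate 3, 0.0944 without diet replicate 3 and 0.0508 without diet replicate 4. In lung it was 0.0854 and 0.0792 without Targretin replicates 1 and 2, and 0.182 and 0.16 without diet replicates 3 and 4. The liver call was also lost with only the 2 groups compared (0.0554). The lung call was lost under division by the array median (0.0629), where 0 genes passed higher and 1 lower, with no filter (0.0522) and with only the 2 groups compared (0.186). Without diet lung replicate 2, 6 genes passed with Targretin in lung, where 299 of all probe sets did, against 142 in the main fit.

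Rpl5, which with Rpl11 and the 5S RNA can bind the p53 inhibitor Mdm2, rose with 9cRA in liver by 1.04 ± 0.29, adjusted p = 0.0451. Its signals were low, 224, 104, 228 and 380.4 on diet and 607, 409, 455 and 491 with 9cRA. The groups did not overlap, but the call was lost in 7 of the 8 fits that left out 1 array, all except that without diet replicate 4, with adjusted p-values of 0.0597 to 0.127. Its partner Rpl11 differed by -0.021, adjusted p = 0.954. With Targretin and 4HPR Rpl5 differed by 0.92 and 0.67, and neither passed.

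Rpl21 had the largest passing differences in liver with all 3 agents. Its protein belongs to the large subunit. The diet livers read 1721, 2354, 2274 and 2321, the Targretin livers 8009, 9623 and 9719.8 and the 9cRA livers 9086, 9619, 9204 and 7866. The treated arrays were all far above the diet arrays, by 2.06 ± 0.37, adjusted p = 0.00129, and by 2.03 ± 0.34, adjusted p = 0.00289. The 4HPR livers read 7861, 9112, 9127 and 1931: the fourth lay among the diet arrays, and the difference was 1.46 ± 0.34, adjusted p = 0.0301. It was the 1 call of 41 with 4HPR, where 1.19% of all probe sets were higher and 1.6% lower. That call was lost when any 1 array other than 4HPR replicate 4 was left out, with adjusted p-values of 0.0581 to 0.0954.

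The same split appeared in lung, where no Rpl21 difference passed. The diet lungs read 13871, 2863 and 2712, so that the first of these, replicate 2, lay near the treated arrays. The treated lungs read 15431, 22762 and 16536 with Targretin, 19118, 14981, 14174 and 16961 with 9cRA and 14388, 19025, 15021 and 4045 with 4HPR, where the last lay near the lower diet arrays. The differences were 1.91, adjusted p = 0.0769 with Targretin, 1.76, adjusted p = 0.327 with 9cRA and 1.25, adjusted p = 1 with 4HPR. Without 4HPR liver 4, 4HPR lung 4 and diet lung 2 the differences became 1.99 for 4HPR in liver, and 2.67, 2.52 and 2.51 for Targretin, 9cRA and 4HPR in lung. These arrays were picked for their Rpl21 values, so no p is given. In mammary gland all 14 arrays read 21309 to 38631, whatever the agent.

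The other probe sets of Rpl21 gave other values. The second brightest had liver differences of -0.30, -0.28 and 0.016 with Targretin, 9cRA and 4HPR, with adjusted p-values of 0.463, 0.509 and 0.976. It did show the organ difference, with mammary gland above liver by 1.81, adjusted p = 1.46e-09. The fourth, a dim one, rose with Targretin (1.12, adjusted p = 0.0219) and 9cRA (1.02, adjusted p = 0.0415) but not with 4HPR (0.29, adjusted p = 0.624). With the mean of all Rpl21 probe sets the 4HPR call was lost, at 0.41 and an adjusted p of 0.258.

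Rpl26, a protein of the exit site that also binds p53 messenger RNA, gave opposite calls through its pair of probe sets. The brighter one fell with Targretin in liver, from 21416, 23217, 18184 and 16943 to 12316, 13333 and 14968, by -0.55 ± 0.16, adjusted p = 0.0302. The other rose, from 3060.4, 3548, 2665 and 5409 to 11632, 12824 and 18907, by 1.99 ± 0.38, adjusted p = 0.00227. Neither pair of groups overlapped, and the mean of both probe sets rose by 0.72 with an adjusted p of 0.0268. The fall was lost without Targretin replicate 1 or 2 or diet replicate 1 or 2, at adjusted p-values of 0.0803 to 0.121, and under division by the array median (0.0994). The second probe set also rose with 9cRA (2.34, adjusted p = 0.00129) and with 4HPR (1.88, adjusted p = 0.00896), where the brighter one differed by -0.18 and -0.20 and did not pass.

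The least bright probe set of Rps15, a head protein next to the decoding site, divided the arrays as Rpl21 did. It read 749, 602, 560.3 and 749 in diet liver, 1635, 2318 and 2554 with Targretin, 2766, 2749, 2731 and 2859 with 9cRA and 2972, 2516, 2478 and 638 with 4HPR. In diet lung it read 4963, 951 and 772 and in 4HPR lung 5367, 5885, 3799 and 802. As with the brightest Rpl21 and the second Rpl26 probe sets, 4HPR liver 4 and 4HPR lung 4 were low and diet lung 2 was high. It rose in liver with Targretin (1.64, adjusted p = 0.00604), 9cRA (2.01, adjusted p = 0.00264) and 4HPR (1.45, adjusted p = 0.0256), whereas the brightest Rps15 probe set differed by -0.42, -0.12 and 0.0088 and did not pass. In liver no gene with several tested probe sets had all of them pass in 1 direction with any agent, out of 15. With Targretin some but not all probe sets of Rpl13a, Rpl27 and Rps6 passed as well, and with 9cRA those of Rpl27. The second Rpl27 probe set read 5304, 5174, 4187 and 5281 in diet liver and 8293, 7895, 7640 and 5794 with 4HPR. In lung it read 13943.5, 8539 and 6938 on diet and 12680, 15626, 11315 and 9171.5 with 4HPR.

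**Figure D5:**
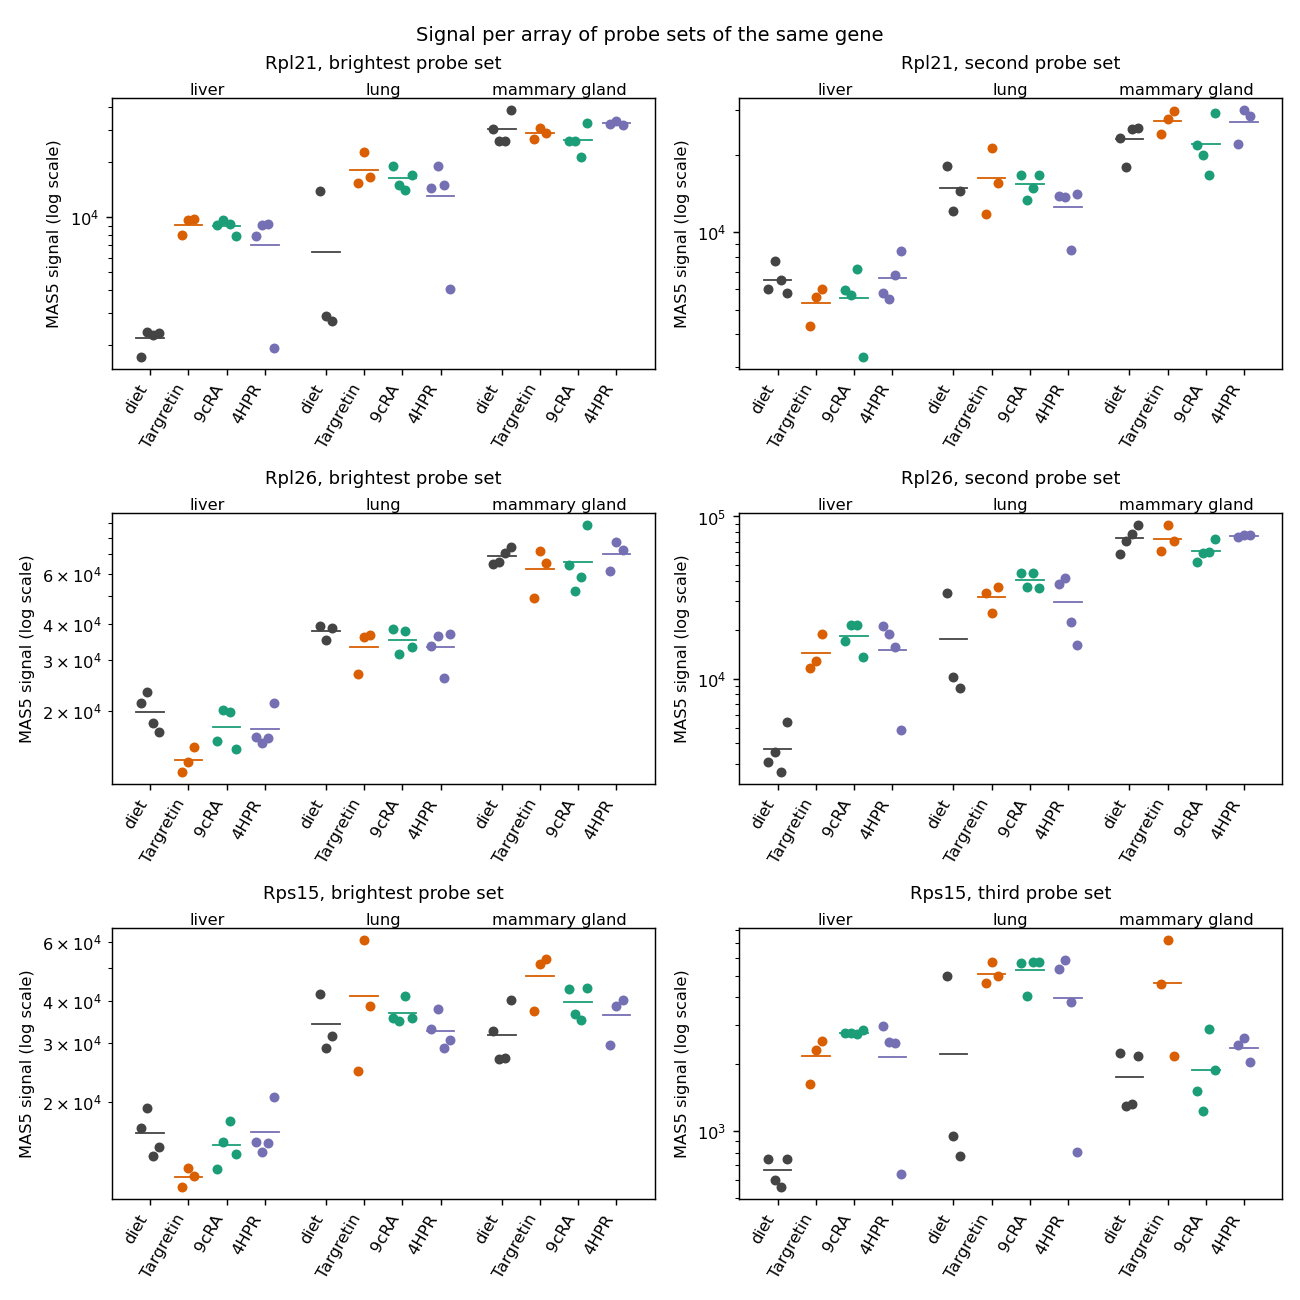
Signal on each array, on a log axis, of probe sets of Rpl21, Rpl26 and Rps15 in liver, lung and mammary gland, 1 point per array and colours by agent. In the brightest Rpl21 probe set the diet livers lie at 1721 to 2354 and the Targretin livers at 8009 to 9720, while the second brightest had no passing difference.

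In the mammary glands of Targretin-treated rats 4 of the 41 genes rose and 0 fell, against 7.97% and 5.19% of all probe sets. They were Rpl6, Rplp0 and Rpl18, the bright genes that did not pass between mammary gland and liver, and Rps10. Rpl6 read 16672, 6511, 6608 and 15656 on diet and 22103, 33009.9 and 34616 with Targretin, with no overlap and a difference of 1.51 ± 0.33, adjusted p = 0.0105. Rps10, a head protein, read 18079, 11189, 12784 and 21623 on diet and 25718, 32345 and 32762 with Targretin, also with no overlap, and the difference was 0.97 ± 0.21, adjusted p = 0.0105. Both passed in all 17 alternative fits. The second probe set of Rpl6 rose too, from 13196, 7683, 8458 and 12268 to 18019, 29153 and 28353, by 1.28 ± 0.26, adjusted p = 0.0063.

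Rplp0 and Rpl18 had smaller fitted differences. Rplp0 read 40223, 59697 and 58430.1 with Targretin, of which the lowest overlapped diet, and differed by 0.85 ± 0.21, adjusted p = 0.0181. Rpl18 read 17052, 19229 and 20982 with Targretin, above every diet array, and differed by 0.77 ± 0.21, adjusted p = 0.0268. Both calls were lost without Targretin replicate 2 or 3 or diet replicate 2 or 3, at adjusted p-values of 0.0583 to 0.0893. In each of those fits 2 genes passed, where 338 to 410 of all probe sets did. Without diet replicate 4, 7 genes passed, where 756 of all probe sets did. The split also moved with the scaling: quantile normalization gave 6 higher and 2 lower, and division by the array median 2 higher and 1 lower.

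The rise of these 4 genes stood beside a fall of liver markers in the same glands. All 14 hepatocyte markers were lower with Targretin than on diet in mammary gland, with a median difference of -3.69, and their summed signal was 7029 to 31393 against 90757 to 141578 on diet. It was 48553 to 128977 with 9cRA and 76070 to 148023 with 4HPR. In 1 Targretin mammary gland the skeletal muscle markers summed to 77008, against 2678 to 3875 on diet. Mammary epithelium and milk markers were higher with Targretin, at 267589 to 392940 against 168013 to 261050, and fibroblast and matrix markers lower, at 195655 to 226333 against 278485 to 324840. The actin ratio was 1.51 to 1.88 against 1.88 to 2.61 on diet, and the hexokinase ratio 1.65 to 2.69 against -0.097 to 0.80. The GAPDH ratio, 1.49 to 2.03, overlapped the 1.28 to 1.64 on diet. The part of these in the result was not tested. With 9cRA, where hepatocyte signal overlapped diet, Rpl6 differed by 0.86, adjusted p = 0.174, Rplp0 by 0.65, adjusted p = 0.144 and Rpl18 by 0.61, adjusted p = 0.154, and none passed. The other smallest p-values with 9cRA were those of Rpl3, at -0.64, adjusted p = 0.144 and Rps4x-ps9, at -0.57, adjusted p = 0.178. With 4HPR the differences of Rpl6 and Rplp0 were 0.54 and 0.48, and neither passed. Rpl19l4 fell with 4HPR by -2.22 ± 0.64 with no overlap, and did not pass either (limma adjusted p = 0.999).

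Whether a change differed between organs was tested itself, with a moderated F test. For Targretin 7 of 41 genes passed, where 10.6% of all probe sets did: Rpl6 (adjusted p = 0.000581), Rplp0 (0.00466), Rpl18 (0.00835), Rps10 (0.0171), Rpl21 (0.0229), Rpl19l4 (0.0255) and Rps15 (0.0438). Rpl6 with Targretin differed from diet by -0.52 (liver), -0.0088 (lung) and 1.51 (mammary gland). In the same order Rplp0 stood at -0.33, 0.20 and 0.85, and Rpl21 at 2.06, 1.91 and -0.053. Without Targretin mammary gland replicate 2 or 3 or diet mammary gland replicate 2 the count was 4, where 612, 566 and 589 of all probe sets passed. For 9cRA 0 genes passed, where 0.231% of probe sets did, and for 4HPR 0, where 0.0% did. At an unadjusted p under 0.05 limma counted 4 genes (9.76%) for 9cRA and 1 (2.44%) for 4HPR, against 11% and 6.89% of all probe sets.

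Among the partners of the ribosome, initiation factors had calls in treated liver with each agent. With Targretin 1 of 19 was higher and 4 were lower, where 4.89% and 6.28% of all probe sets were. With 9cRA it was 1 and 3, against 2.55% and 2.6%, and with 4HPR 0 and 3, against 1.19% and 1.6%. Eif4e, which binds the messenger RNA cap, differed by -1.05, adjusted p = 0.00272 with Targretin, -1.40, adjusted p = 0.000774 with 9cRA and -0.80, adjusted p = 0.0328 with 4HPR. Eif5, which triggers GTP hydrolysis at the start codon, differed by -0.84, adjusted p = 0.00562, -0.73, adjusted p = 0.0171 and -0.73, adjusted p = 0.0258. The 11 nucleolar and assembly genes and the 4 elongation factor genes had no call in liver with any agent. Rheb, the GTPase that activates mTOR, was the regulator that fell with Targretin, in liver (-0.65, adjusted p = 0.00393) and in mammary gland (-0.63, adjusted p = 0.0305).

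In the Targretin mammary glands Rpsa, a ribosomal protein that the symbol rule leaves out, rose by 1.04 ± 0.20, adjusted p = 0.00509. Nucleolin (Ncl), the abundant nucleolar protein, rose by 1.15 ± 0.26, adjusted p = 0.0133, and Polr1d fell, at -0.85, adjusted p = 0.0399. Of the initiation factor genes Eif2b2 and Eif3b rose, at 1.05 and 0.85, and 17 of 19 did not pass. Of all probe sets 7.97% were higher and 5.19% lower with Targretin in mammary gland. In lung none of the 6 lists had a passing gene with any agent.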

How the data were processed

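The authors deposited a matrix of MAS5 intensity values (the method per the submitters' processing notes, linear scale) for 8799 probe sets of Affymetrix rat genome arrays, 1 array per sample. The 2% trimmed mean was 1501.78 to 1503.29 on every array, so no further scaling was applied. The number of arrays limits the precision. Of the probe sets, 59 controls were left out, and 3 values were 0. Platform annotation gave 1 symbol for 7006 of the 8740 used, several for 308 and none for 1426. Of the 43 genes, 42 Entrez IDs were found in RefSeq.

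Signals were converted to log2(signal + 38.1), the pseudocount being the 10th percentile. A probe set was tested where it exceeded the array's 40th percentile on at least 3 arrays of an organ: 6071 in liver, 5932 in lung, 6051 in mammary gland. limma 3.58.1 in R 4.3.3 (lmFit, eBayes with trend) was fitted to the 4 groups of each organ, and to all 43 arrays for the differences between organs on diet and for the moderated F tests, with 6913 probe sets tested. Benjamini-Hochberg adjustment ran over every tested probe set, and genes pass below an adjusted p of 0.05. The scripts were tested on simulated data. Arrays were compared in pairs, and none duplicated another.

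The genes, gene lists and roles were chosen with earlier results of these data known. The text draws its named genes from these sets: all passing genes against diet, or up to 5 of the smallest p where none passed; the 6 largest differences each way between organs; the 6 smallest p of each F test; the brightest and dimmest 5 genes on diet; the stalk and 5S partners and Rps6; genes with opposite calls; and up to 3 passing genes of each list. Alternatives were quantile normalization, division by the array median, no filter, a pseudocount 4 times larger, the mean of a gene's probe sets, a replicate block, array quality weights, only the 2 groups compared, leaving out 4 arrays in doubt, and leaving out each array in turn. Leaving out 3 arrays with unusual Rpl21 values was added after the data were seen. No genome was used; start sequences came from a RefSeq table.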

Additional observations from a re-analysis of the deposited data

Results flagged for a closer look

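The ribosomal protein share and the signals of the genes called with an agent were searched for a far-off array in groups of 4, in 20 sets of values, and 2 were found where chance gives about 1 in 20. In the 4HPR livers the ribosomal protein share of replicate 4 was 3.24%, against 2.40% to 2.52% in the others, a gap of 0.857 of the whole range. In the diet livers the Rpl21 signal of replicate 1 was 1721, against 2274.5 to 2354 in the others, a gap of 0.875 of the range.

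The change with Targretin differed between organs for 7 genes in limma's moderated F test. The adjusted p was 0.000581 for Rpl6, 0.00466 for Rplp0, 0.00835 for Rpl18, 0.0171 for Rps10, 0.0229 for Rpl21, 0.0255 for Rpl19l4 and 0.0438 for Rps15. Rpl19l4 differed from diet by 1.88 (liver), 2.02 (lung) and -1.36 (mammary gland), and none of these 3 differences passed. In the same order Rps15 stood at -0.42, 0.20 and 0.58, and none passed.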

How the results depend on the processing

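Of 506 alternative values of counts and medians 435 stayed close to the reported one and 71 moved. The number of genes passing with Targretin in liver was 2 with a replicate block, 7 with array quality weights, 9 without the 3 arrays and 2 to 4 on leaving out 1 array. With 9cRA in liver it was 6 with the mean of probe sets. With 4HPR in liver it was 2 under median division (median difference 0.22), 3 with weights, 0 with only the 2 groups, 2 without the 3 arrays and 0 to 2 on leaving out 1. In lung with Targretin it was 0 with no filter, the block, only the 2 groups or without the 4 arrays in doubt (replicate 2 of diet liver and of Targretin lung, 4 of 4HPR liver, 3 of Targretin mammary gland), 6 with weights or without the 3 arrays and 0 to 6 on leaving out 1. The median was -0.13 under median division, -0.12 without the 4 arrays and -0.12 to 0.28 on leaving out 1. With 9cRA in lung it was 11 with weights, 3 without the 3 arrays and 0 to 1 on leaving out 1, with medians of -0.028 under quantile normalization and -0.060 under median division. With 4HPR in lung it was 2 with weights, 2 without the 3 arrays and 0 to 1 on leaving out 1. In mammary gland with Targretin it was 8 under quantile normalization, 8 with weights, 2 without the 4 arrays and 2 to 7 on leaving out 1. With 9cRA there it was 0 to 1 on leaving out 1, and the median was -0.20 under median division. Over all probe sets the counts were as follows. With weights 899 passed with Targretin and 443 with 4HPR in liver. In lung 696, 964 and 399 passed with Targretin, 9cRA and 4HPR, and in mammary gland 1310 with Targretin. Without the 3 arrays the counts were 890, 281, 352, 73, 100 and 796 in the same order. The main fits had 678, 169, 142, 0, 0 and 796. With Targretin in mammary gland 771 passed under quantile normalization and 410 without the 4 arrays. The 3 arrays were picked after their Rpl21 values were seen, so the counts without them describe these arrays and support nothing. The cause was not tested.

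Between organs, liver against lung had 20 passing under median division, where 3452 of all probe sets passed. The median of the genes was -1.18 under quantile normalization, -0.50 under median division, -0.81 with no filter and -0.79 with the mean of probe sets. The median of mammary gland against lung was 0.46 under quantile normalization and 1.13 under median division, and against liver 1.44 under quantile normalization. Genes whose change differed between organs with Targretin numbered 4 under median division and 4 to 9 on leaving out 1. With 9cRA they were 1 with the block, 3 with weights, 1 without the 4 arrays, 1 without the 3 arrays and 0 to 1 on leaving out 1. With 4HPR they were 2 with weights and 2 without the 3 arrays. Over all probe sets 312 passed for 9cRA and 276 for 4HPR with weights, against 16 and 0 in the main fit. The Rpl26 difference with Targretin in liver turned to 0.72 with the mean of its probe sets. Of 932 values of single genes 850 kept their call, 68 lost it, 13 gained one and 1 reversed.

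Within an organ, array numbers showed no clear pairing of the samples. The median correlation of residuals between arrays of the same number was -0.0024 (liver, 0 of 21 pairs over 0.1), 0.025 (lung, 6 of 18) and 0.013 (mammary gland, 3 of 18). Between organs under 1 agent it was 0.018 (4HPR, 3 of 10 pairs over 0.1), 0.080 (9cRA, 4 of 12), -0.029 (diet, 1 of 10) and 0.073 (Targretin, 4 of 9). The 9cRA pairs ran from 0.023 to 0.19. With the replicate block 2 genes passed with 9cRA in liver, 1 with 4HPR in liver and 4 with Targretin in mammary gland. Between organs it was 34 in liver against lung, 28 in mammary gland against lung and 35 in mammary gland against liver. Over all probe sets the counts were 247, 132, 611, 3720, 2927 and 4045 in the same order. Calls lost under the block were Rps24 (adjusted p = 0.0663) and Rpl26 (0.0538) with Targretin and Rpl5 (0.0769) with 9cRA in liver, Rps24 (0.102) with Targretin in lung and Rpl18 (0.0503) with Targretin in mammary gland.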

Other observations

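The arrays carry a control probe set for 5S ribosomal RNA, which is not part of the messenger RNA measurement. Its lowest and highest signals were 90.9 and 596.6 (liver), 57.2 and 451.2 (lung), and 19.8 and 263.2 (mammary gland). In the 9cRA livers it was 466 to 596.6, against 142.5 to 366.7 in the diet livers. The 4HPR livers read 563.9, 583.6 and 373.7, above every diet liver, and 139.1 in replicate 4. In lung, diet replicate 2 read 180.7, against 76.5 and 77.8 in its group. Replicate 4 of 4HPR lung read 57.2, against 87.4 to 196.3 in its group. These differences were not tested.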
